A study of Mus musculus with 6 samples.

Results

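The genes described here are 4 adult-type globin genes, Hba-a1, Hba-a2, Hbb-bs and Hbb-bt, and 2 further genes of the red cell lineage, Alas2 and Slc4a1. They were taken by gene name from the count tables, which list 46078 genes, and all 6 were found and were among the 16813 genes with enough counts to be tested. RNA from growth plate cartilage of the distal femur and the proximal tibia was sequenced in bulk in 3 control and 3 mutant libraries at E18.5. The controls carried 1 Idh1 LSL allele, a mutant Idh1 kept silent by a lox-stop-lox cassette, over a wild-type allele (Idh1 LSL/+). The mutants carried the same allele together with Col2a1-Cre, in which the promoter of the cartilage collagen gene Col2a1 drives the recombinase that removes the stop. Both groups therefore share the LSL allele, and the presence of Cre and the expression of mutant Idh1 cannot be told apart. The Col2a1 promoter is active in cartilage cells, while the genes below are known from red cells. The labels also hold a husbandry text with an age of 2 months, and the embryonic age was used here. Neither litters nor sexes are labelled, and the labels do not say that each library came from a separate animal, so that p-values measure the spread between these libraries.

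Haemoglobin is a tetramer of alpha and beta globin chains, each holding a haem group, and it makes up most of the protein of a red cell. Before birth red cells form mainly in the liver, and late erythroblasts and young red cells keep globin mRNA after most other transcripts are lost. Growth plate cartilage itself holds no vessels, while the perichondrium and the bone and marrow next to it carry blood. Hba-a1 and Hba-a2 encode alpha globin, and Hbb-bs and Hbb-bt encode beta globin of the adult type. Alas2 encodes the erythroid form of 5-aminolevulinate synthase, which starts haem synthesis, and Slc4a1 encodes the anion exchanger of the red cell membrane.

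Libraries held between 23445687 and 30415773 counted reads, and a level of 3 counts, used here as the floor, corresponded to 0.0986 to 0.128 CPM. These floors, and all intervals below, cover counting error only. CPM are the counts of a gene relative to the total of its library, scaled by TMM factors. Idh1 had 37.3 to 65.4 CPM in the controls and 47.6 to 56.3 CPM in the mutants (log2 fold change 0.10, standard error 0.19, edgeR adjusted p = 0.94). The labels were not checked by this count, which does not tell reads of the mutant allele from those of the wild-type allele. The cartilage markers Col2a1, Acan and Sox9 were read in every library, Col2a1 at 1923 to 5245 CPM, and so was the muscle actin Acta1, at 3440 to 6813 CPM, so that the libraries labelled as growth plate chondrocytes also held muscle RNA. Mutant 3 had 26356 counts of Xist, the RNA of the inactive X chromosome, against 0 to 13 in the rest of the libraries, which touches Alas2 because that gene is X-linked. Control 2 stood apart from the other controls in all 6 genes described here, and results are given with and without it.

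The globin genes come in near-identical pairs, and the sequences are shown because they set what could be counted. The alpha genes lie on chromosome 11 of GRCm38, Hba-a1 (ENSMUSG00000069919) at chr11:32283511-32284465 and Hba-a2 (ENSMUSG00000069917) at chr11:32296489-32297298, both on the forward strand. The beta genes lie on the reverse strand of chromosome 7, Hbb-bs (ENSMUSG00000052305) at chr7:103826534-103828096 and Hbb-bt (ENSMUSG00000073940) at chr7:103812524-103813996. The 429 coding bases of Hba-a1 and Hba-a2 differed at 1 base, C381T, and the 444 coding bases of Hbb-bs and Hbb-bt differed at 1 base, C417T, counted from 1 at the first coding base with the first-named gene's base first. Each line below gives 41 coding bases around that position, 5′ to 3′ on the coding strand, from the GENCODE transcripts of the same build, with the differing base in capitals.
Hba-a1, coding bases 361 to 401: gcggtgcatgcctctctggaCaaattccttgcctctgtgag
Hba-a2, coding bases 361 to 401: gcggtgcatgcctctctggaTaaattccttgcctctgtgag
Hbb-bs, coding bases 397 to 437: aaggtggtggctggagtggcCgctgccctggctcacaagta
Hbb-bt, coding bases 397 to 437: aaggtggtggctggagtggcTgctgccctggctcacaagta

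The reads were 50 bases long, and reads that mapped to several places were not counted. Of the 761 windows of 50 bases in the Hba-a1 transcript sequence, 211 (27.7%) were held by no other annotated transcript, and of the 616 windows of Hba-a2 only 66 (10.7%) were. The windows that were not unique matched the other alpha gene in 550 cases. The beta genes were easier to tell apart, with 335 of 716 windows (46.8%) for Hbb-bs and 273 of 654 (41.7%) for Hbb-bt. Slc4a1 (ENSMUSG00000006574, chr11:102348824-102366203, reverse strand) was unique in all of its 4884 windows. Alas2 (ENSMUSG00000025270, chrX:150547375-150570638, forward strand) was unique in 2123 of 2398 (88.5%), and the rest were shared with Apex2 and Mir3620, which overlap it on the opposite strand. Strand was ignored in the counting, so that reads in such an overlap cannot be told apart. The windows were compared with annotated transcripts and not with the whole genome. How many globin reads were left out of the counts for this reason was not measured.

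**Figure D1:**
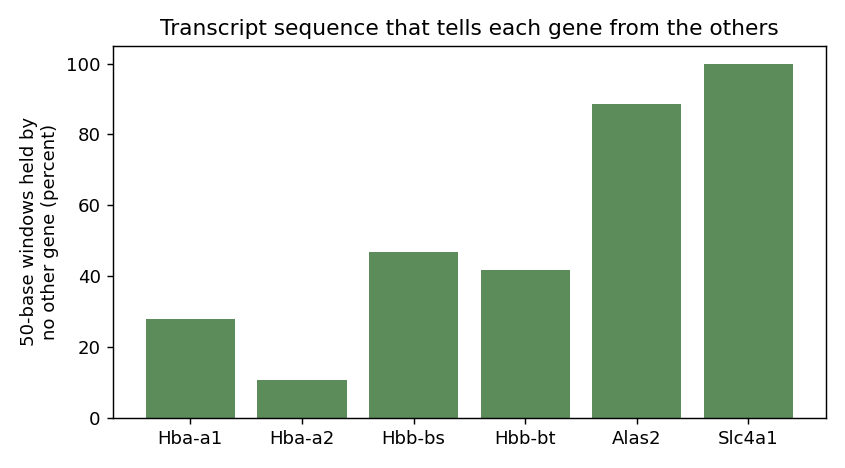
The bars show, for each gene, the percentage of its 50-base transcript windows that no other annotated gene holds (vertical axis, percent). Hba-a2 had the lowest share, 10.7%, and Slc4a1 the highest, 100%.

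The promoters are shown because the genes varied together across the libraries. Entries were found in RefSeq for 5 of the 6 genes, and each holds 300 bases in GRCm38.p6, the last 50 of them after the start of transcription. The Slc4a1 promoter is not shown. Capitals mark 4 short motifs on either strand. They are GATAA (reverse TTATC, the core bound by GATA factors), CACCC (reverse GGGTG, the box bound by Klf1 and related factors), CCAAT (reverse ATTGG) and TATAA (reverse TTATA). No 2 different motifs overlapped in these sequences. The Hba-a2 window (chr11:32296242-32296541) matched that of Hba-a1 at 297 of 297 bases when shifted by 3, so that it is not printed.
Hba-a1, chr11:32283422-32283721, forward strand: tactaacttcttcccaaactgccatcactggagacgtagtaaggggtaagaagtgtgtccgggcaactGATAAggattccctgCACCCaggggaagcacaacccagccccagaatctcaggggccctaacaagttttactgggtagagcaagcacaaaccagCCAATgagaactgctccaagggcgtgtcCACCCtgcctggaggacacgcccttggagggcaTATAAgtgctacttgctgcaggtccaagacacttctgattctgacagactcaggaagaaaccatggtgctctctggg
Hbb-bs, chr7:103827879-103828178, reverse strand: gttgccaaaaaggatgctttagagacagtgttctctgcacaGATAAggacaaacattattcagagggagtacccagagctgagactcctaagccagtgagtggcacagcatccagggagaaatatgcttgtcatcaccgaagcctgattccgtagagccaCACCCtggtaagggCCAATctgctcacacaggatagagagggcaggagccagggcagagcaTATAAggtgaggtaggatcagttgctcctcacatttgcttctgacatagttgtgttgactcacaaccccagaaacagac
Hbb-bt, chr7:103813874-103814173, reverse strand: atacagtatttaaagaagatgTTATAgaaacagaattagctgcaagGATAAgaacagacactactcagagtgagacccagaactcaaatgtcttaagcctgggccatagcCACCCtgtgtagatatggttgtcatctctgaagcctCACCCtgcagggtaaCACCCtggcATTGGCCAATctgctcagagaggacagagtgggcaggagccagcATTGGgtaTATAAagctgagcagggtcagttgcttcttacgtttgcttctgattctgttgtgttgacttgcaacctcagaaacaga
Alas2, chrX:150547167-150547466, forward strand: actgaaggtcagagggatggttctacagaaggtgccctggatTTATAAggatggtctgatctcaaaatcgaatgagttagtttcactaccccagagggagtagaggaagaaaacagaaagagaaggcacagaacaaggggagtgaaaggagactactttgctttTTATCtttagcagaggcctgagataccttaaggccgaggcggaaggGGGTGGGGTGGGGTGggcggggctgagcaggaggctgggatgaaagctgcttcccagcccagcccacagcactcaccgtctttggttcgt

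GATAA was in all 5 promoters, at 182 bases before the start in Hba-a1, 209 in Hbb-bs, 204 in Hbb-bt and 86, on the opposite strand, in Alas2. The motif was in 25.4% of the 32851 promoters of the table. CACCC was also in all 5, against 57.5% of all promoters, with 3 copies in Hbb-bt and 3 on the opposite strand in Alas2. The 5 promoters held both GATAA and CACCC, which 12.6% of all promoters did. The 5 are not independent of each other, since the alpha promoters matched at 297 of 297 bases. CCAAT was in the 4 globin promoters and not in the Alas2 window (37.4% of all). TATAA was in all 5 (24.9% of all), 27 to 30 bases before the start in the globin genes and 207 bases before it in Alas2, and Hbb-bt held a further copy 229 bases before the start on the opposite strand. These matches are letters in a window, and binding was not measured.

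Levels were lower in every mutant library than in every control library for 5 of the 6 genes, which was the case for 7.58% of all tested genes. None of the 6 passed the test at an adjusted p under 0.05 (quasi-likelihood test of edgeR, adjusted over 16813 genes after Benjamini and Hochberg), a level that 0.19% of all genes reached in either direction and 0.137% on the lower side. All 6 had an unadjusted p under 0.05 with lower levels in the mutants, against 4.93% of all genes. For Hba-a2 this was lost in 6 of 15 other settings, among them DESeq2, limma-voom and the fit without control 2, each of which left 5 of the 6. Their median log2 fold change was -1.34, and that of all tested genes was -0.003. DESeq2, which called 1.15% of all genes, called 2 of the 6, Alas2 and Slc4a1. In bulk tissue, fewer red cells and less RNA per red cell cannot be told apart.

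Hbb-bs, the more abundant of the beta globin genes, had 325, 976 and 384 CPM in controls 1, 2 and 3, against 174, 256 and 192 CPM in mutants 1, 2 and 3. The groups did not overlap, and control 2 was 2.75 times the mean of the other controls. The log2 fold change, mutant to control, was -1.44 (standard error 0.36, n = 3 per group, edgeR adjusted p = 0.233). Without control 2 it was -0.77 (edgeR adjusted p = 0.288).

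Hbb-bt, the other adult beta globin gene, was read at 77.0, 217 and 96.3 CPM in controls and at 40.2, 60.3 and 50.3 CPM in mutants. Every mutant was below every control, with control 2 again far above the others. The log2 fold change was -1.37 (standard error 0.34, n = 3 per group, edgeR adjusted p = 0.211), and -0.78 without control 2 (edgeR adjusted p = 0.288).

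Hba-a1 carried most of the counted alpha globin reads. Controls had 104.8, 277 and 119 CPM, and mutants had 54.5, 82.8 and 65.4 CPM. The libraries stood in the same order as for the beta genes, and the groups did not overlap. The log2 fold change was -1.31 (standard error 0.33, n = 3 per group, edgeR adjusted p = 0.233), and -0.72 without control 2 (edgeR adjusted p = 0.296).

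Hba-a2 was the exception among the 6. Its level was 11.3, 52.5 and 14.9 CPM in controls, and 9.24, 13.7 and 9.51 CPM in mutants, so that mutant 2 lay above control 1. The log2 fold change was -1.28 (standard error 0.49, n = 3 per group, edgeR adjusted p = 0.506). It came to -0.27 without control 2 (edgeR adjusted p = 0.754), and control 2 alone was 4.02 times the mean of the other controls. These values rest on 218 to 1610 counts per library and on the 66 windows that set the gene apart from Hba-a1. With the counts of both alpha genes added, the log2 fold change was -1.30 (standard error 0.35, edgeR adjusted p = 0.283), and for both beta genes added it was -1.43 (standard error 0.36, edgeR adjusted p = 0.228).

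Alas2, which sets the rate of haem synthesis in erythroblasts, had the lowest log2 fold change of the 6. Controls 1, 2 and 3 had 25.6, 59.7 and 24.5 CPM of it, and mutants 1, 2 and 3 had 9.66, 13.5 and 11.5 CPM. All mutants lay below all controls, and mutant 3, the library with Xist, lay between the other mutants. The fitted log2 fold change was -1.67 (standard error 0.32, n = 3 per group, edgeR adjusted p = 0.112), and -1.11 without control 2 (edgeR adjusted p = 0.0795). DESeq2 gave -1.67 with an adjusted p of 0.0208.

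Slc4a1, the anion exchanger, was the lowest of the 6 and the one in which control 2 stood out least. Levels of 6.14, 8.35 and 5.17 CPM in controls stood against 2.84, 3.62 and 2.03 CPM in mutants, from 59 to 256 counts per library. The groups did not overlap, and control 2 was 1.48 times the mean of the other controls. The log2 fold change was -1.22 (standard error 0.25, n = 3 per group, edgeR adjusted p = 0.141), and -1.001 without control 2 (edgeR adjusted p = 0.356). DESeq2 gave -1.22 with an adjusted p of 0.000999.

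**Figure D2:**
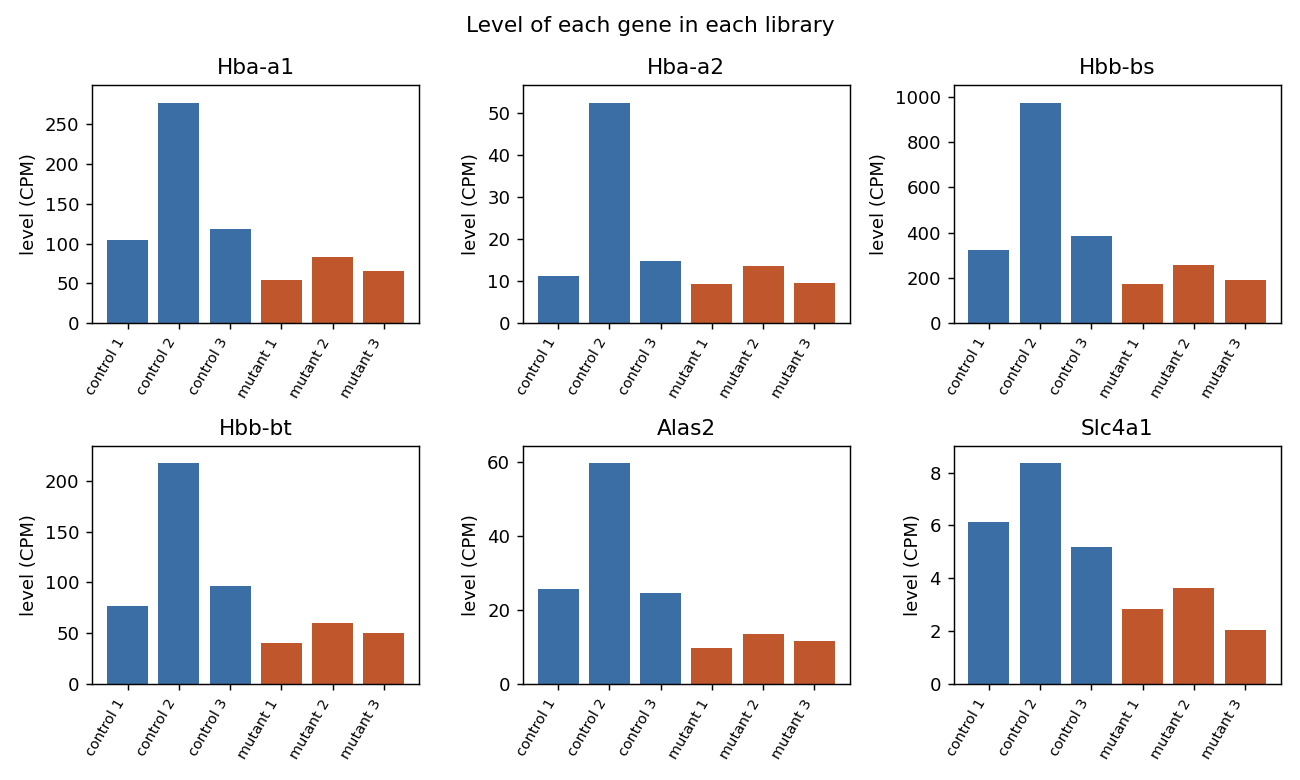
Each panel shows 1 gene, and each bar the level in 1 library in CPM on a linear axis from 0, with controls in blue and mutants in orange. Control 2 is the highest bar of every panel, and mutants lie below all controls in every panel but that of Hba-a2.

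**Figure D3:**
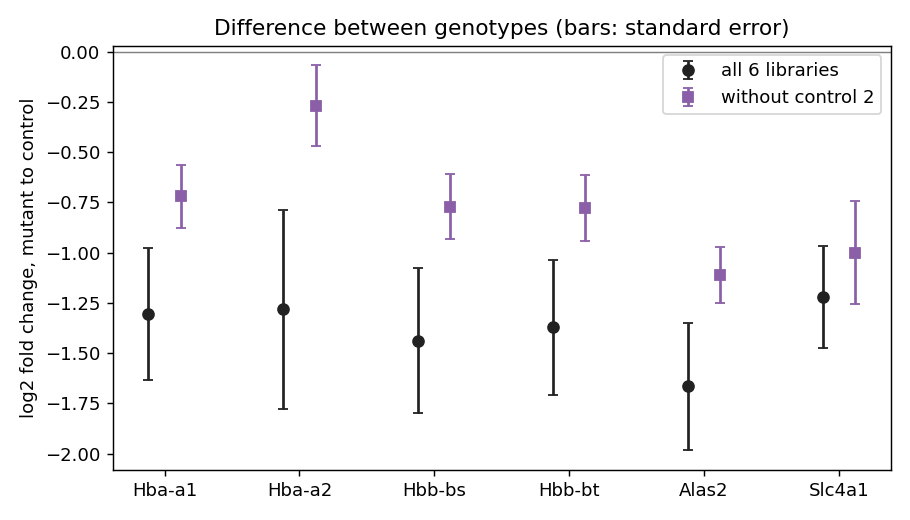
Points show the log2 fold change, mutant to control, of each gene from edgeR with all 6 libraries (circles) and without control 2 (squares), and bars show the standard error. All points lie below 0, from -1.67 to -1.22 with all libraries and from -1.11 to -0.27 without control 2.

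Leaving out control 2 reduced the difference in each gene, and least in Slc4a1. Mean control levels were 2.32 to 3.17 times the mean mutant levels with all controls. With controls 1 and 3 alone they were 1.65 times for Hba-a1, 1.21 for Hba-a2, 1.71 for Hbb-bs, 1.72 for Hbb-bt, 2.17 for Alas2 and 2.00 for Slc4a1. Among the mutants themselves the highest library was 1.40 to 1.78 times the lowest, depending on the gene.

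The order of the genes, compared as CPM per kilobase of exon, was the same in all 6 libraries. Hbb-bs was highest, at 651 ± 417 CPM per kilobase in controls and 240 ± 50 in mutants (SD, n = 3). Hba-a1 followed at 206 ± 118 and 83.2 ± 17.6, and Hbb-bt at 185 ± 108 and 71.6 ± 14.3, a gap between these neighbours that was smaller than their spread. Hba-a2 had 39.3 ± 34.3 and 16.2 ± 3.74, Alas2 15.2 ± 8.33 and 4.80 ± 0.80, and Slc4a1 1.34 ± 0.33 and 0.58 ± 0.16 CPM per kilobase. Divided by the number of unique windows in place of length, Hba-a2 moved nearer to the other globins, at 171 to 796 CPM per 1000 windows in controls against 282 to 796 for Hbb-bt. In control 2 it then stood just above Hbb-bt, and in the other 5 libraries the order was as before.

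The 4 globin genes took 0.0528%, 0.153% and 0.0591% of all counts in controls 1, 2 and 3 and 0.028%, 0.0415% and 0.0316% in mutants 1, 2 and 3. The balance within the beta pair lay in a narrow range. Of the beta counts, Hbb-bs gave 80.9%, 81.8% and 79.95% in controls and 81.2%, 80.9% and 79.2% in mutants. The widest 95% Wilson interval of these shares ran from 80.1% to 82.3%, in mutant 1. In the alpha pair, Hba-a1 gave 90.3%, 84.1% and 88.8% of the counts in controls and 85.5%, 85.8% and 87.3% in mutants, and the groups overlapped in both pairs. In control 2 the Hba-a1 share (95% Wilson interval 83.3% to 84.8%) was below those of controls 1 (89.2% to 91.3%) and 3 (87.8% to 89.8%).

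A pair of ratios separated the groups without overlap, and as ratios within a library they do not depend on its depth. Beta globin was 3.33, 3.43 and 3.46 times alpha globin per kilobase in controls and 3.20, 3.12 and 3.098 times in mutants. Per unique window the ratio was lower, 1.85 ± 0.08 in controls and 1.66 ± 0.02 in mutants (SD, n = 3), and the groups again did not overlap. For each Alas2 count, controls had 20.3, 25.5 and 25.01 globin counts and mutants had 28.8, 30.6 and 27.6. Control 2, which stood apart in levels, lay inside the range of the other controls for beta over alpha per kilobase, below both of them per unique window (1.76 against 1.88 in control 1 and 1.90 in control 3), and close to control 3 for globin per Alas2. The globin count per Slc4a1 count overlapped between the groups (129 ± 49.7 in controls and 123 ± 30 in mutants), and so did the Alas2 count per Slc4a1 count (5.35 ± 1.58 and 4.26 ± 1.21). No test was made on these ratios, and how often ratios of other genes separate the groups was not counted.

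**Figure D4:**
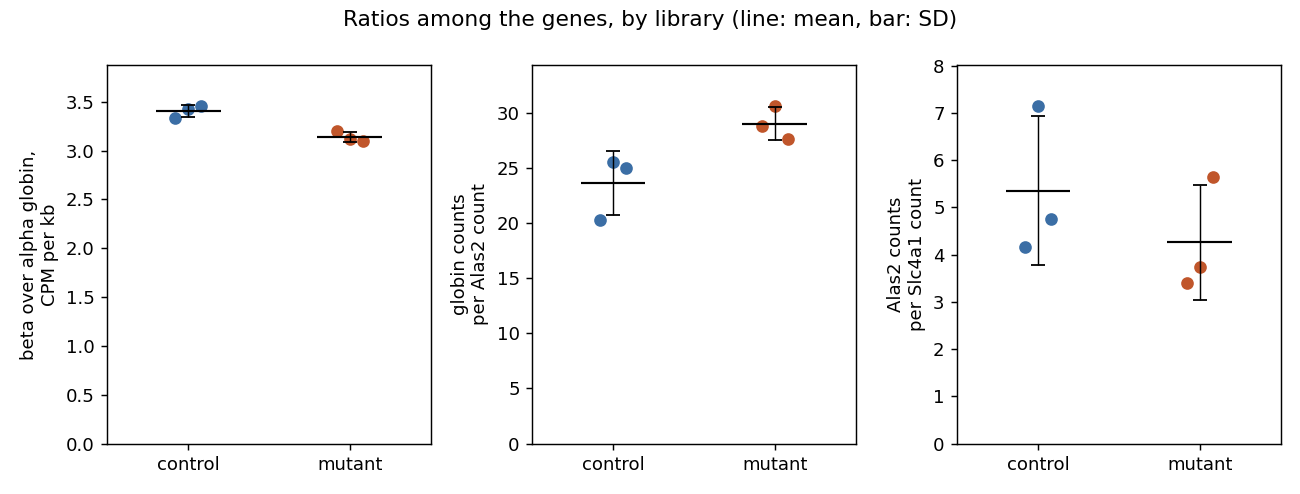
Points show, by genotype, the beta over alpha globin ratio (CPM per kilobase), the globin counts per Alas2 count and the Alas2 counts per Slc4a1 count in each library, with lines at the mean and bars of 1 SD, on axes from 0. The groups are apart in the first and second panels and overlap in the third.

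Other genes of the red cell lineage were read from 5 lists with 69 genes, of which 54 could be tested. None passed the test in either direction (edgeR, adjusted p under 0.05). An unadjusted p under 0.05 was found for 8, against 8.64% of all tested genes, and 6 of these were lower in the mutants, against 4.93% of all. DESeq2 called 2, Tent5c and Bpgm, against 1.15% of all. Log2 fold changes were below 0 in 34 of the 54 (50.7% of all genes), with a median of -0.04, against -1.34 for the 6 genes described above. Complete separation of the groups was seen for 8 genes on the lower side, against 7.58% of all tested genes, and for 3 on the higher side, against 6.85% of all.

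The embryonic globins, made in the primitive red cells of the yolk sac, were read at few counts, and 4 of the 6 embryonic and theta globin genes found were at or under the floor of 3 counts in every library. Hbb-bh2 had 0 counts in every library, which allows up to 0.0986 to 0.128 CPM, and Hba-x, the embryonic alpha-type chain, had 1 to 11 counts and reached at most 0.359 CPM. None of the 6 could be tested. In haem synthesis and iron supply, 13 genes were tested with a median log2 fold change of -0.02. Fech, which inserts iron into the haem ring, had 47.9 to 57.6 CPM in controls and 44.8 to 47.5 CPM in mutants (log2 fold change -0.16, edgeR adjusted p = 0.697). Tfrc, the transferrin receptor, had a log2 fold change of -0.29, the mitochondrial iron importer Slc25a37 -0.09, the haem enzyme Urod -0.02 and the ferrireductase Steap3 -0.13 (edgeR adjusted p from 0.636 to 0.978). The steps of haem synthesis carried out by Fech and Urod run in most cell types, while Alas2 is known from erythroid cells.

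Of the red cell membrane and surface genes, 15 were tested with a median log2 fold change of -0.05. The water channel Aqp1 was read at 568 to 706 CPM (log2 fold change -0.08, edgeR adjusted p = 0.891), and endothelium and cartilage also express it. Epb41, which ties spectrin to the membrane, had 71.8 to 85.8 CPM in controls and 63.9 to 67.4 CPM in mutants (log2 fold change -0.27, edgeR adjusted p = 0.385). Ank1, Sptb and Tmod1, which muscle also expresses, had log2 fold changes of -0.07, 0.03 and -0.004. Epb42 was named after its values were seen. Its protein binds the anion exchanger, and it had 10, 16 and 17 counts in controls and 3 counts in each mutant (log2 fold change -2.05, standard error 0.48, edgeR adjusted p = 0.183).

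Transcription factors of the lineage showed no such separation on the lower side. Gata1, the main erythroid GATA factor, had 0.21 to 0.93 CPM and could not be tested, and Klf1, which binds CACCC boxes, had 0.24 to 0.77 CPM with a log2 fold change of 0.03. Ldb1, Lmo2, Zfpm1 and Tal1, which work with Gata1 but are also read in other cells, had log2 fold changes of -0.11, -0.02, -0.06 and -0.004. Bcl11a, which acts on globin switching, had 5.84 to 7.81 CPM in controls and 7.86 to 11.3 CPM in mutants (log2 fold change 0.43, edgeR adjusted p = 0.524).

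Among the red cell enzymes and maturation genes, 17 were tested with a median log2 fold change of -0.11. Their summed level was 555 to 582 CPM in the controls and 516 to 552 CPM in the mutants. The abundant members Prdx2, Cat, Xpo7, Bnip3l and Ube2o, active in many tissues, had log2 fold changes between -0.14 and 0.03. Of the 17 genes, 4 stood lower in every mutant than in every control, against 7.58% of all tested genes. These 4 were named after their values were seen. Which cells gave the reads of these 4, or of other genes in the erythroid lists, was not tested. Bpgm, which makes the phosphate that lowers the oxygen affinity of haemoglobin, had 18.7 to 22.8 CPM in controls and 13.8 to 15.6 CPM in mutants (log2 fold change -0.52, standard error 0.11, edgeR adjusted p = 0.142). Tent5c, a poly(A) polymerase, had 20.6 to 27.8 CPM in controls and 13.1 to 17.3 CPM in mutants (log2 fold change -0.67, standard error 0.14, edgeR adjusted p = 0.141). Slc14a1, a urea transporter, had a log2 fold change of -0.84 (edgeR adjusted p = 0.312), and Trim10 one of -0.94 (edgeR adjusted p = 0.543). Without control 2 the values were -0.44 for Bpgm, -0.57 for Tent5c, -0.69 for Slc14a1 and -0.60 for Trim10, with edgeR adjusted p from 0.343 to 0.722.

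**Figure D5:**
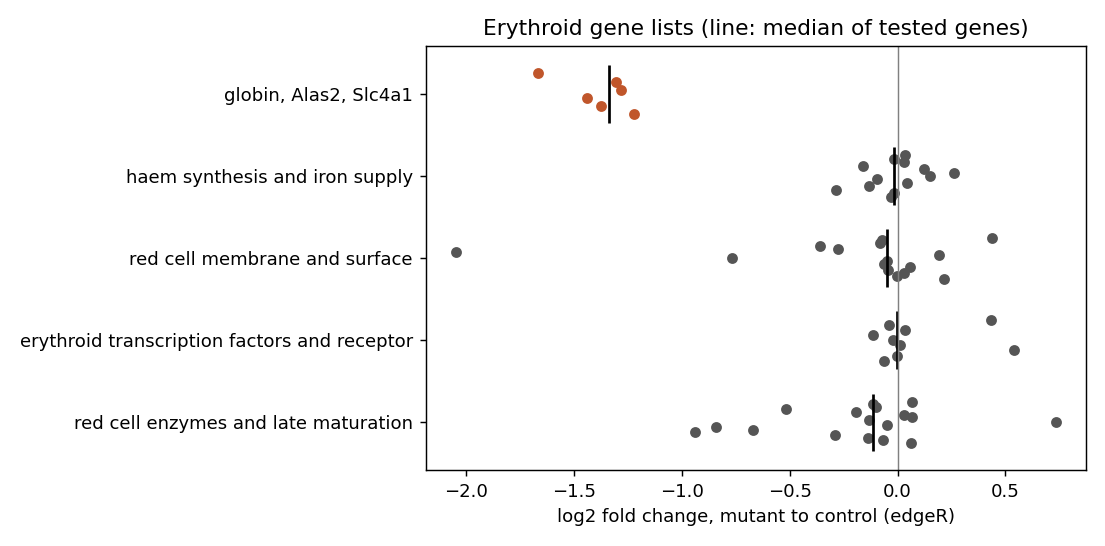
Each point is a tested gene, placed by its log2 fold change, mutant to control, from edgeR, and vertical lines mark the median of each list. The 6 genes described here lie between -1.67 and -1.22, and the medians of the other lists lie between -0.11 and -0.004. Single genes of those lists run from -2.05 for Epb42 to 0.73 for Pklr.

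Genes that clear haemoglobin and recycle its iron were read as a further list, of which 6 were tested and none was called (edgeR, 1 with an unadjusted p under 0.05, against 8.64% of all genes). Slc40a1, the iron exporter ferroportin, had 36.3 to 47.3 CPM in controls and 23.7 to 32.3 CPM in mutants (log2 fold change -0.59, edgeR adjusted p = 0.181). Hmox1, which breaks down haem, had a log2 fold change of 0.13, the haemoglobin receptor Cd163 -0.28, the biliverdin reductase Blvra 0.11 and the haemopexin receptor Lrp1 0.04.

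Markers of other blood and tissue cells were summed beside the 6 genes, whose own sum was 550 to 1590 CPM in controls and 290.4 to 429.9 CPM in mutants. The summed levels of all 7 marker lists overlapped between the groups, and none of their genes was called by edgeR. Single markers nevertheless stood higher in every mutant than in every control, as 6.85% of all tested genes did. They were 3 of 8 tested endothelial genes, Kdr, Emcn and Esam (log2 fold changes 0.25, 0.30 and 0.22). To these came 2 of 8 macrophage genes, Adgre1 and Csf1r (0.27 and 0.24). The others were Itga2b, 1 of 5 megakaryocyte genes (0.45), and Dmp1 of osteoblasts and osteocytes, 1 of 6 in its list (1.75). All were named for this after their values were seen, with edgeR adjusted p from 0.323 to 0.646. In the same lists, 2 endothelial, 1 macrophage and 3 megakaryocyte genes had log2 fold changes below 0. The tested neutrophil genes had a median log2 fold change of 0.90 and the osteoblast genes one of 0.64. None in either list was below 0, where 50.7% of all tested genes lay. The groups overlapped in all 8 tested neutrophil genes, none of which had an unadjusted p under 0.05 (edgeR). Each was highest in mutant 2, where S100a9 had 34.9 CPM, against 6.44 in mutant 1, 7.17 in mutant 3 and 14.8 in control 1. Megakaryocyte and platelet markers summed to 49.7 to 67.4 CPM in controls and 51.6 to 65.6 CPM in mutants (8 genes, 5 tested), and neutrophil markers to 6.94 to 38.3 and 14.7 to 82.4 CPM (10 genes, 8 tested). Macrophage markers summed to 408 to 418 and 392 to 534 CPM, with Vsig4 at 0 to 1 count, and endothelial markers to 841 to 921 and 867 to 991 CPM. Cartilage, osteoblast and muscle markers summed to 3233 to 6546, 366 to 1571 and 13850 to 20640 CPM in controls, and to 5098 to 7180, 1420 to 2386 and 13190 to 19190 CPM in mutants. Control 2 was the highest control for platelet and cartilage markers. The part of any of these tissues in the globin values was not tested.

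The 6 genes varied together across the libraries. On the log2 CPM scale, Pearson correlations over the 6 libraries ran from 0.76, for Slc4a1 with Hba-a2, to 0.998, for Hba-a1 with either beta gene. These values describe 6 libraries that share the genotype difference and control 2. Of the 16813 tested genes, 65 outside the set had a correlation above 0.95 with the mean log2 CPM of the 6. The 10 highest were 4930526A20Rik, Ntan1, Cby1, Usb1, Nfatc4, Lrrc23, Enpp2, St6galnac5, Fuom and Socs6, at 0.985 to 0.995, and none of them is in an erythroid list. Their differences were smaller than those of the 6, with log2 fold changes from -0.90 for 4930526A20Rik to -0.09 for Socs6. The erythroid list genes that followed most closely were Epb41 (0.953), Trim10 (0.932), Bpgm (0.924), Blvrb (0.923) and Fech (0.912). Other erythroid list genes ran as strongly the opposite way, among them Add2 (-0.976), Slc11a2 (-0.924), Bcl11a (-0.855) and Xk (-0.838).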

How the data were processed

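Total RNA was captured on oligo-dT, made into stranded libraries and sequenced as 50-base single reads. Per the submitters' processing notes and the file headers, the authors used Trim Galore 0.6.4, STAR 2.6.1d on GRCm38 and featureCounts 1.6.4, without strand and with reads of several places left out. The deposited values are whole-number counts per gene, without normalization, and no per-sample column was left unused.

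From these counts edgeR 4.0.16 in R 4.3.3 (filterByExpr with a minimum count of 10 and a minimum total of 15, TMM factors of 0.964 to 1.02, quasi-likelihood test) compared mutants with controls by genotype alone over 16813 genes, with Benjamini-Hochberg adjustment and a threshold of 0.05. The study modelled litter, which the labels do not give. The functions were tested on simulated data. Windows of 50 bases were compared among GENCODE transcripts, and motifs were searched in RefSeq promoters. DESeq2 1.42.0 and limma 3.58.1 were alternatives. Figures were drawn with matplotlib 3.10.9.

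The genes, gene lists and tests were chosen with earlier results of these data known. All 6 genes are described, and of each list the called genes and up to 5 tested genes with the highest mean CPM are named, with 10 genes for likeness of pattern. Others were named after their values were seen. Replicate numbers were not used as pairs in the main fit, because the labels give no litter. The deviations of same-numbered libraries had correlations of -0.127, 0.007 and -0.0953. With 3 libraries per group, these values cannot decide whether such libraries share a litter.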

Additional observations from a re-analysis of the deposited data

How the results depend on the processing

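Every refit of the 6 genes gave lower levels in the mutants. Of the 58 with another setting, 13 passed the threshold, and of the 36 with 1 library left out, 0 did. DESeq2, which called 1.15% of all genes, called Alas2 (log2 fold change -1.67) and Slc4a1 (-1.22). edgeR without the low-count filter called all 6, and it called 259 genes in all, against 32 in the main fit. The log2 fold changes were -1.31 for Hba-a1, -1.28 for Hba-a2, -1.44 for Hbb-bs, -1.37 for Hbb-bt, -1.67 for Alas2 and -1.22 for Slc4a1. They were as in the main fit, while standard errors were smaller, 0.18 to 0.26 against 0.25 to 0.49. Leaving out 1 library gave -1.55 to -0.72 for Hba-a1, -1.64 to -0.27 for Hba-a2, -1.71 to -0.77 for Hbb-bs, -1.64 to -0.78 for Hbb-bt, -1.88 to -1.11 for Alas2 and -1.43 to -1.001 for Slc4a1.

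Between genotypes edgeR called 32 genes, DESeq2 193, limma-voom 19 and edgeR without the filter 259. Leaving out 1 library gave 3 to 17. Of the erythroid lists 0 genes were called, and 2 by DESeq2 and without the filter, Tent5c and Bpgm in both. Unique windows of Hba-a2 were 8.25% at 36 bases and 15.4% at 75 bases, and at 75 bases 32.1% for Hba-a1 and 90.1% for Alas2. Beta over alpha globin was 3.41 in controls and 3.14 in mutants per kilobase, and 1.85 and 1.66 per unique window, a scale chosen after seeing the data. The causes of the changed counts were not tested.

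Whether the replicate number as a block is a pairing is not known, since the labels give no litter. With the replicate block edgeR called 3 of the 16813 tested genes and 0 of the 6. DESeq2 with the block called 96 of the 16813, among them 1 erythroid list gene (Tent5c) and 5 of the 6. The log2 fold changes of these 5 were -1.18 for Hba-a1, -1.28 for Hbb-bs, -1.24 for Hbb-bt, -1.55 for Alas2 and -1.22 for Slc4a1. With 3 libraries per group, 1 of them apart from the rest, the size of the globin differences was poorly bounded.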
